A study of Mus musculus with 6 samples.

Results

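Transcript levels of 8 genes that sense or carry short-chain fatty acids and related metabolites were examined in the mouse colon, where obesity-prone animals (OP) were compared with obesity-resistant animals (OR). The rule that chose them names their function and uses no measured value, although it was set with earlier results of these data known, and all 8 were found among the 17778 gene symbols measured. They comprise 5 receptor genes, *Ffar1*, *Ffar2*, *Ffar3*, *Ffar4* and *Hcar2*, and 3 transporter genes, *Slc5a8*, *Slc16a1* and *Slc16a3*. RNA sequencing was performed on the colon of 3 OP mice and 3 OR mice, with 1 library per mouse. All 6 were wild-type male C57BL/6J mice that had eaten a high-fat diet with 60% fat for 16 weeks and were 21 weeks old. The OP mice came from the highest weight gainers on this diet and the OR mice from the lowest, so the groups differ in weight gain on a shared diet and not in genotype or treatment. The tissue was a piece of colon holding several cell types, and its position along the colon is not given in the sources used here.

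Gut bacteria ferment dietary fiber to acetate, propionate and butyrate, which colonocytes take up and oxidize as a main fuel. *Ffar2* and *Ffar3* encode G protein-coupled receptors for these acids, present on enteroendocrine L cells and, for *Ffar2*, on leukocytes, and *Hcar2* encodes a receptor for niacin, β-hydroxybutyrate and butyrate. *Ffar1* and *Ffar4* share the free fatty acid receptor name but sense medium- and long-chain fatty acids, *Ffar4* being known as the omega-3 fatty acid receptor. *Slc16a1* encodes MCT1, a proton-coupled carrier of lactate, butyrate and ketone bodies, *Slc5a8* encodes the sodium-coupled monocarboxylate carrier of the apical colonocyte membrane, and *Slc16a3* encodes MCT4, a lactate exporter of glycolytic and hypoxic cells.

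The promoters of the 3 genes on which the comparisons below turn most are shown as the 250 bases before the start site, read in the direction of transcription, from RefSeq sequence of build GRCm38.p6. Capitals mark ACGTG, a form of the core of the hypoxia response element, searched on both strands. Other forms of this core were not searched. The authors quantified the genes on build GRCm39, and the coordinates given here belong to GRCm38.p6 only.
*Slc16a3*, chr11:120948817-120949066, + strand: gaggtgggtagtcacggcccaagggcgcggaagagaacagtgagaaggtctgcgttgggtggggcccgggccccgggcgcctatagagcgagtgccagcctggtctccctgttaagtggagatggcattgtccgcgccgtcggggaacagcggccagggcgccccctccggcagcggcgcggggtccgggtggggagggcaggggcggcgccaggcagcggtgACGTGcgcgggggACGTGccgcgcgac
*Slc16a1*, chr3:104638414-104638663, + strand: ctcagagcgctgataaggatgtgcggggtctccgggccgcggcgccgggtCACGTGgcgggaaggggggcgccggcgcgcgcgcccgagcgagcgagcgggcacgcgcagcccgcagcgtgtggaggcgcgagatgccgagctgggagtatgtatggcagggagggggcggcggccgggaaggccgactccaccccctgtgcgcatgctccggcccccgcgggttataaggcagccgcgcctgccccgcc
*Ffar4*, chr19:38096829-38097078, + strand: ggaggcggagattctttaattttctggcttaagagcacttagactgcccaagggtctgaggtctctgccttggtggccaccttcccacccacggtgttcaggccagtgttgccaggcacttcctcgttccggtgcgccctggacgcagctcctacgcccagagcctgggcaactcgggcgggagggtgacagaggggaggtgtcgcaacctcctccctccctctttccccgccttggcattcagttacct
The *Slc16a3* promoter held 2 separate matches, at 27 and 14 bases before the start site. In the *Slc16a1* promoter 2 overlapping matches, 1 on each strand, formed the palindrome CACGTG, which is also an E box, and the *Ffar4* promoter held none. ACGTG was present in 16.6% of the 32851 mouse promoter windows of this length and CACGTG in 6.02%. These shares count windows with 1 or more matches and are not matched for GC content, so they are no background for GC-rich windows. The GC content of the windows was 73.6% for *Slc16a3*, 76.4% for *Slc16a1* and 61.2% for *Ffar4*. These are matches of letters, and binding was not measured. Of the other genes, *Ffar1*, *Ffar2* and *Ffar3* lie on the minus strand of 1 stretch of chromosome 7, where their promoter windows start at 30861471, 30821140 and 30856179. *Ffar2* has 4 annotated start sites, of which the most upstream also held CACGTG. No promoter entry was used for *Hcar2*.

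Expression is given as FPKM (fragments per kilobase, scaled to the library's mapped fragments), to 2 decimals, so that levels of different genes are set side by side per length. The FPKM of a mouse summed to 585350 to 600028 and 16287 to 16619 genes had a value above 0. Fragment totals were estimated from the steps between low values at 13750000 to 15750000 per mouse. Differences between OP and OR mice were tested with limma-trend on log2(FPKM + 1). The test covered the 13520 genes that reached 0.5 FPKM in 3 or more mice, and log2 differences are given as OP minus OR with the standard error (SE) in parentheses. Calls needed a Benjamini-Hochberg q-value below 0.2 together with a ratio of 1.2 or more, or of 0.83 or less. The log2 difference of all genes had a median of -0.10, which median-of-ratios scaling moved to 0.01, and differences are read against this shift. Epithelial markers were high in every mouse, with *Epcam* between 935 and 1188 FPKM, *Cdx2* between 180 and 246 and *Vil1* between 280 and 585, and the muscle marker *Myh11* lay between 180 and 407 FPKM. OP mouse 2 stood apart: *Hoxb13* was 46.9 FPKM there and at most 1.29 in the other mice, *Hoxa13* was 29.5 against at most 3.58, and *Hoxd10* was 0.04 against at least 2.60. In the same mouse *Insl5* was 61.5 FPKM against at most 4.50, *Ly6g* 12.5 against at most 0.65, and *Adipoq* was listed at 0. *Hoxb13* and *Ly6g* were picked after their values were seen. Each fitted difference of the 8 genes is therefore also given without OP mouse 2.

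None of the 8 genes was called in OP against OR mice. Of the 6 genes that passed the filter on low values, 4 had a positive and 2 a negative difference, 0 reached a q-value below 0.2 and 1, *Slc16a3*, had an unadjusted limma-trend p below 0.05. Over all 13520 genes tested, 0.0222% were called, 3 genes that were all lower in OP mice, and 4.03% had an unadjusted p below 0.05. Higher values in OP mice at that level were found for 0.503% of genes and lower values for 3.53%, and median-of-ratios scaling turned this split from 68 higher and 477 lower to 153 higher and 423 lower. In 0 of the 8 genes were all OP mice above or all below the OR mice, whereas the groups did not overlap for 8.44% of the genes tested, with OP below OR in 6.81%, and for 7.8% of all genes measured. *Ffar1* and *Hcar2* did not pass the filter. The median 95% interval over all genes reached 0.49 to either side, so smaller differences could rarely be seen with 3 mice a group. Intervals of the 6 genes tested were wider, the narrowest being -0.62 to 0.97 for *Ffar3* and the widest -1.97 to 1.33 for *Ffar2*. Larger differences could thus be missed in these genes.

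**Figure D1:**
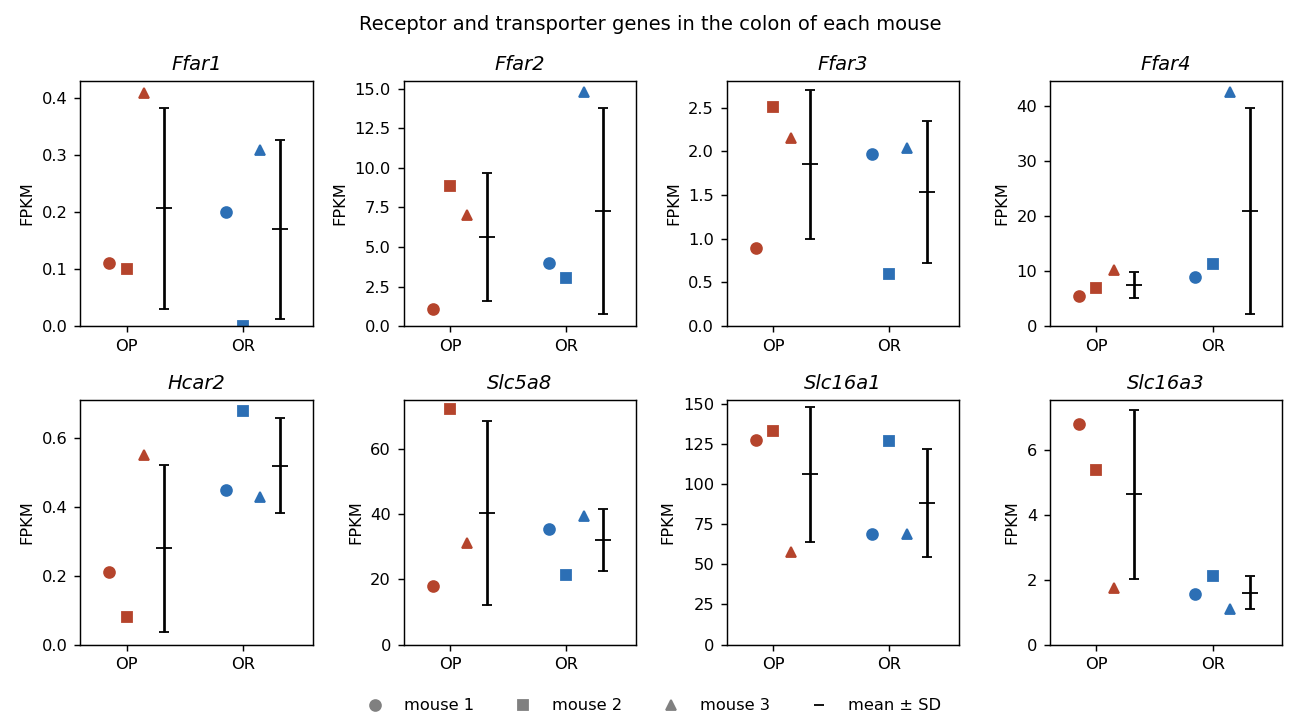
FPKM of the 8 genes in each mouse (vertical axes, FPKM from 0, 1 scale per gene; red, OP; blue, OR; circle, square and triangle, mice 1, 2 and 3) with the mean and SD of each group of 3 mice as bars. The groups overlap in all 8 genes; *Ffar4* is highest in OR mouse 3 at 42.6 FPKM and *Slc16a3* is highest in OP mice 1 and 2 at 6.79 and 5.36 FPKM.

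*Slc16a3*, the lactate exporter, had the largest positive difference of the 6 genes tested. Its levels were 6.79, 5.36 and 1.73 FPKM in OP mice 1, 2 and 3 and 1.57, 2.11 and 1.10 FPKM in OR mice 1, 2 and 3. OP mice 1 and 2 lay above every OR mouse, while OP mouse 3 lay below OR mouse 2. The 3 highest mice were thus OP mice 1 and 2 and OR mouse 2, as for *Slc16a1* below. That pattern, picked after the values were seen, was held by 4.37% of all genes tested. The mean of the OP mice was 4.63 ± 2.61 FPKM (SD, n = 3) and that of the OR mice 1.59 ± 0.505 FPKM (SD, n = 3), 2.90-fold higher in OP mice. By limma-trend the log2 difference was 1.00 (SE 0.40, 95% interval 0.08 to 1.93), with an unadjusted p = 0.0373 and a Benjamini-Hochberg q = 0.945. The two-sided exact permutation test on the 3 and 3 mice gave p = 0.2, where the smallest possible p is 0.1. The difference was larger in size than that of 98.8% of the genes tested. It was 0.85 without OP mouse 2, between 0.70 and 1.46 with any 1 mouse left out, and 1.11 after median-of-ratios scaling. Without the filter the limma-trend p rose to 0.0514.

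*Slc16a1*, the main butyrate and lactate carrier, had the highest level of the 8 genes. It measured 127.4, 133.0 and 57.7 FPKM in OP mice 1, 2 and 3 and 68.6, 127.1 and 69.0 FPKM in OR mice 1, 2 and 3. OP mice 1 and 2 and OR mouse 2 were high and the other 3 mice low, so both groups held both levels. OP mice averaged 106 ± 42.0 FPKM (SD, n = 3) and OR mice 88.3 ± 33.7 FPKM (SD, n = 3). The log2 difference was 0.23 (SE 0.37, 95% interval -0.64 to 1.10, limma-trend p = 0.554, q = 0.952), with an exact permutation p = 0.8. It was 0.02 without OP mouse 2. The same 3 mice were the highest for 6 of 12 epithelial markers, *Krt20* and *Vil1* among them, and for 3 of 9 absorptive colonocyte markers, *Slc26a3*, *Aqp8* and *Guca2a*, against 4.37% of all genes tested. *Aqp8*, a water channel, was 1060, 1084 and 358 FPKM in OP mouse 1, OP mouse 2 and OR mouse 2 and between 10.1 and 39.4 FPKM in the others. Other colonocyte markers differed from this order: *Guca2b*, which encodes uroguanylin, was lowest in these 3 mice, at 60.3, 60.9 and 53.3 FPKM against 77.3 to 126 elsewhere, an order held by 24.1% of all genes tested, and *Car1* was lowest in OP mouse 2. Of the 12 epithelial markers 1, *Cdx1*, was also lowest in the 3 mice with high *Slc16a1*. It was 147, 210 and 174 FPKM in OP mouse 1, OP mouse 2 and OR mouse 2, and 212 to 221 FPKM elsewhere. These patterns were picked after the values were seen, and the part of these markers in the *Slc16a1* levels was not tested.

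*Slc5a8*, the sodium-coupled carrier, measured 18.0, 72.2 and 31.1 FPKM in OP mice 1, 2 and 3 and 35.4, 21.2 and 39.5 FPKM in OR mice 1, 2 and 3. The highest and the lowest value both fell in OP mice. On average OP mice had 40.45 ± 28.25 FPKM (SD, n = 3) and OR mice 32.05 ± 9.60 FPKM (SD, n = 3). The log2 difference was 0.15 (SE 0.47, 95% interval -0.96 to 1.26, limma-trend p = 0.761, q = 0.969), with an exact permutation p = 0.9. Without OP mouse 2, the mouse that stood apart in *Hoxb13*, it was -0.37, and without OR mouse 2 it was -0.11, so its direction rested on single mice.

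Among the receptors, *Ffar4* had the largest difference, toward lower values in OP mice. It measured 5.55, 6.84 and 10.2 FPKM in OP mice 1, 2 and 3 and 8.97, 11.2 and 42.6 FPKM in OR mice 1, 2 and 3. OR mouse 3 lay far above the other 5 mice, and OP mouse 3 lay above OR mouse 1. In means, OP mice had 7.52 ± 2.39 FPKM (SD, n = 3) and OR mice 20.9 ± 18.8 FPKM (SD, n = 3), 2.78-fold higher in OR mice. The log2 difference was -1.07 (SE 0.54, 95% interval -2.33 to 0.19), with a limma-trend p = 0.0846, a Benjamini-Hochberg q = 0.945 and an exact permutation p = 0.2. In size the difference exceeded that of 99.1% of genes, but without OR mouse 3 it was -0.41, and without OP mouse 2 it was -1.03. Fibroblast markers had lower values in OP mice as well, in 7 of 7 genes. None of the 7 was called, the lowest limma-trend q being 0.582 for *Col3a1*, and 5 had an unadjusted p below 0.05, against 3.53% of all genes tested that were lower in OP mice at that level. Their summed level was 71.8 to 138 FPKM in OP mice and 205 to 442 FPKM in OR mice, highest in OR mouse 3. In that mouse *Dcn* was 191, *Dpt* 133 and *Lum* 31.1 FPKM, each the highest of the 6 mice, and these were picked after their values were seen. *Col1a1*, *Col1a2* and *Col3a1* were also highest there but stood out less, with *Col1a1* at 13.1 FPKM against 11.9 in OR mouse 1. *Pdgfra* was highest in OR mouse 2, at 8.55 FPKM against 7.98 in OR mouse 3. *Col1a1*, *Col3a1* and *Lum* of this list were also selected in the study from these libraries, so the list is no independent evidence of its direction. Macrophage markers (10 of 11 lower in OP mice, or 9 of 11 after median-of-ratios scaling, 9 with an unadjusted p below 0.05) and blood endothelial markers (7 of 7 lower, all 7 with an unadjusted p below 0.05) also had lower values in OP mice, with 0 called in either list and lowest limma-trend q-values of 0.668 for *Cd163* and 0.826 for *Vwf*. Less *Ffar4* RNA per cell and fewer cells that carry it cannot be told apart in whole tissue, and the part of these cell types in the *Ffar4* values was not tested.

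*Ffar2*, the acetate and propionate receptor, varied most between mice of the 6 genes tested. It measured 1.09, 8.86 and 7.00 FPKM in OP mice 1, 2 and 3 and 3.99, 3.06 and 14.8 FPKM in OR mice 1, 2 and 3. The range over the 6 mice was 13.6-fold, with the lowest value in OP mouse 1 and the highest in OR mouse 3. OP mice averaged 5.65 ± 4.06 FPKM (SD, n = 3) and OR mice 7.28 ± 6.53 FPKM (SD, n = 3). The log2 difference was -0.32 (SE 0.70, 95% interval -1.97 to 1.33, limma-trend p = 0.663, q = 0.957), with an exact permutation p = 0.8. It turned to 0.38 without OP mouse 1 and to 0.28 without OR mouse 3, and was -0.74 without OP mouse 2. Neutrophil markers, which mark a leukocyte that carries this receptor, were low: 9 of the 11 listed were in the data, 2 passed the filter, their sums were 1.44 to 15.4 FPKM in OP mice and 1.70 to 2.45 in OR mice, and *S100a8* was at most 1.90 FPKM and listed at 0 in OP mouse 3 and OR mouse 1. The highest sum, that of OP mouse 2, was mostly *Ly6g* at 12.5 FPKM, a gene that did not pass the filter. The 2 markers that passed it did not go together in that mouse. There *S100a8* was the highest of the 6 mice, at 1.90 FPKM, and *Csf3r* the lowest, at 0.35 FPKM.

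*Ffar3*, the propionate and butyrate receptor, measured 0.89, 2.51 and 2.15 FPKM in OP mice 1, 2 and 3 and 1.97, 0.60 and 2.04 FPKM in OR mice 1, 2 and 3. OP mouse 1 and OR mouse 2 were low and the other 4 mice lay close together. On average OP mice had 1.85 ± 0.851 FPKM (SD, n = 3) and OR mice 1.54 ± 0.812 FPKM (SD, n = 3). The log2 difference was 0.18 (SE 0.34, 95% interval -0.62 to 0.97, limma-trend p = 0.615, q = 0.957), with an exact permutation p = 0.5. It was -0.13 without OR mouse 2 and 0.003 without OP mouse 2. Of the 13 enteroendocrine markers tested, 9 were also lowest in this pair of mice, an order held by 26.4% of all genes tested, while *Nts*, *Sct* and *Sst* were lowest in OP mouse 2. The L cell hormones *Gcg* and *Pyy*, picked after their values were seen, are 2 of the 9: *Gcg* was 3.86 FPKM in OP mouse 1 and 18.5 in OR mouse 2 against 35.8 to 70.0 elsewhere, and *Pyy* was 19.4 and 26.1 against 90.0 to 179. Of the enteroendocrine markers 13 of 15 were tested, 6 higher and 7 lower in OP mice, with summed levels of 184 to 914 FPKM in OP mice and 232 to 580 in OR mice, and with median-of-ratios scaling 10 were higher and 3 lower. Their part in the *Ffar3* values was not tested.

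*Hcar2* and *Ffar1* were the least abundant of the 8 genes. *Hcar2*, the niacin receptor, measured 0.21, 0.08 and 0.55 FPKM in OP mice 1, 2 and 3 and 0.45, 0.68 and 0.43 FPKM in OR mice 1, 2 and 3. OP mice 1 and 2 lay below every OR mouse, but OP mouse 3 lay above OR mice 1 and 3. OP mice averaged 0.280 ± 0.243 FPKM (SD, n = 3) and OR mice 0.520 ± 0.139 FPKM (SD, n = 3), and the estimated depths put these values at about 2 to 18 fragments a mouse. Fitted without the filter, the log2 difference was -0.26 (SE 0.14, limma-trend p = 0.117, q = 0.948, exact permutation p = 0.3) and -0.15 without OP mouse 2.

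*Ffar1*, the medium- and long-chain fatty acid receptor, measured 0.11, 0.10 and 0.41 FPKM in OP mice 1, 2 and 3 and 0.20 and 0.31 FPKM in OR mice 1 and 3, and it was listed at 0 in OR mouse 2. By a step size fitted to these same values, they fall on steps of about 0.10 FPKM that would stand for 1, 1 and 4 fragments in OP mice and 2, 0 and 3 in OR mice. A count of 0 allows up to 3 fragments, or 0.291 FPKM in OR mouse 2, and the group means of 0.207 and 0.170 FPKM lie below that limit. Fitted without the filter, the log2 difference was 0.04 (SE 0.13, limma-trend p = 0.755, q = 0.964, exact permutation p = 0.8) and 0.11 without OP mouse 2. A small difference in *Ffar1* at these low levels was not detectable at this depth.

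**Figure D2:**
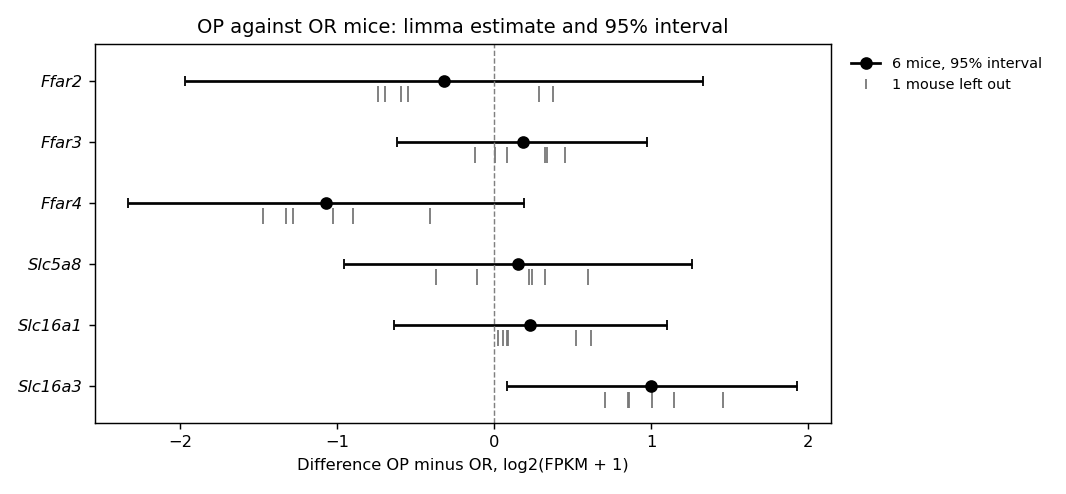
Log2 difference OP minus OR on the log2(FPKM + 1) scale (horizontal axis) for the 6 genes tested, as the limma-trend estimate with its 95% interval (black) and as the estimate with each mouse left out in turn (grey ticks). The interval excludes 0 in *Slc16a3* alone, from 0.08 to 1.93, and leaving out a mouse turns the sign of *Ffar2*, *Ffar3* and *Slc5a8*.

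Ratios of gene levels within a mouse do not depend on scaling between mice, and 3 were compared. *Slc16a1* was 18.8, 24.8 and 33.3 times as abundant as *Slc16a3* in OP mice 1, 2 and 3 and 43.7, 60.3 and 62.7 times in OR mice 1, 2 and 3. Every OP mouse lay below every OR mouse, so relative to the MCT1 gene the MCT4 gene was higher in each OP mouse, including OP mouse 3, in which *Slc16a1* was the lowest of the 6 mice. The log2 ratio averaged 4.64 ± 0.41 (SD, n = 3) for OP and 5.78 ± 0.29 (SD, n = 3) for OR mice. The difference was -1.14, with an exact permutation p = 0.1, the smallest that 3 mice against 3 allow, and a Benjamini-Hochberg value of 0.3 over the 3 ratios. It remained between -1.35 and -0.93 with any 1 mouse left out. When *Slc16a1* was divided by each other gene that was tested and above 0 in all 6 mice, the groups did not overlap for 0.878% of 13445 genes and the ratio was lower in every OP mouse for 0.141%. *Slc16a1* itself was high and low in both groups, so these shares are no background for genes whose profile resembles its own.

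The ratio of *Ffar2* to *Ffar3* was 1.23, 3.53 and 3.26 in OP mice 1, 2 and 3 and 2.03, 5.10 and 7.26 in OR mice 1, 2 and 3. *Ffar2* exceeded *Ffar3* in all 6 mice, and the groups overlapped. The log2 ratio differed by -0.80, with an exact permutation p = 0.4 (0.6 after adjustment over the 3 ratios), and lay between -1.33 and -0.31 with a mouse left out. The ratio of *Slc16a1* to *Slc5a8* was 7.06, 1.84 and 1.85 in OP mice and 1.94, 5.99 and 1.75 in OR mice. OP mouse 1 and OR mouse 2 had high ratios and the other mice lay near 2, with a log2 difference of 0.08 and an exact permutation p = 0.7 (0.7 adjusted), and its sign turned without OP mouse 1, OR mouse 1 or OR mouse 3.

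**Figure D3:**
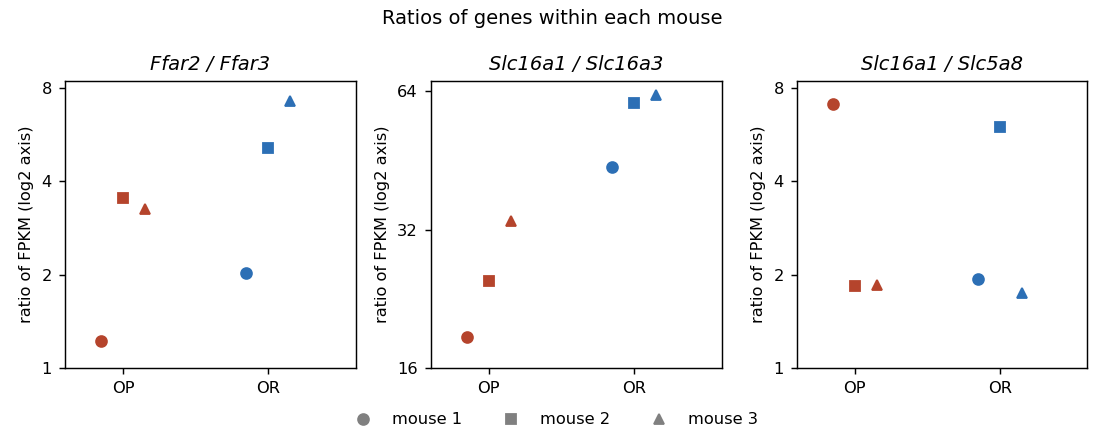
Within-mouse ratios of FPKM for 3 pairs of genes (vertical axes, log2-scaled; red, OP; blue, OR; circle, square and triangle, mice 1, 2 and 3). The ratio of *Slc16a1* to *Slc16a3* is 18.8 to 33.3 in OP mice and 43.7 to 62.7 in OR mice, and the other ratios overlap between groups.

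By mean FPKM over the 6 mice the order was *Slc16a1* (97.1), *Slc5a8* (36.25), *Ffar4* (14.2), *Ffar2* (6.47), *Slc16a3* (3.11), *Ffar3* (1.69), *Hcar2* (0.400) and *Ffar1* (0.188). Carriers of the colonocyte thus stood at the top and the receptors below, with the lactate exporter *Slc16a3* among the receptors. *Slc16a1* exceeded *Slc5a8* in 6 of 6 mice, by 1.46 ± 0.92 (SD) on the log2 scale, with an exact sign-flip permutation p = 0.0312, the smallest that 6 mice allow, and a value of 0.0875 after Benjamini-Hochberg adjustment over the 7 neighboring pairs. In 5 of 6 mice *Slc5a8* exceeded *Ffar4*, *Ffar4* exceeded *Ffar2*, *Ffar3* exceeded *Hcar2* and *Hcar2* exceeded *Ffar1*, each with an exact permutation p = 0.0625 and an adjusted value of 0.0875. *Ffar2* and *Slc16a3*, and *Slc16a3* and *Ffar3*, differed by less than the spread between mice (log2 differences 0.76 ± 1.58 and 0.49 ± 0.98, exact permutation p = 0.281 for both). No neighboring pair reached an adjusted value below 0.05.

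The 6 genes tested varied between mice more than most. The SD of log2(FPKM + 1) over the 6 mice was 1.03 for *Ffar2*, above that of 98.3% of genes, 0.97 for *Ffar4* (98.0%), 0.77 for *Slc16a3* (96.1%), 0.69 for *Slc5a8* (94.8%), 0.55 for *Slc16a1* (90.4%) and 0.46 for *Ffar3* (84.9%). For each gene, those with the most similar profile were sought by the root mean square (RMS) difference of mean-centered log2(FPKM + 1) over the 6 mice. *Slc5a8* was followed most closely, by *Bnipl* at an RMS of 0.050 and *Stom*, which encodes the membrane protein stomatin, at 0.105. *Slc16a1* was followed by *Ada*, adenosine deaminase, at 0.067 and the bicarbonate carrier gene *Slc4a7* at 0.091. Both were high in OP mice 1 and 2 and OR mouse 2, with *Ada* at 7.95, 8.42 and 8.15 FPKM there and 3.43 to 4.56 FPKM elsewhere. *Ffar3* was followed by *Il11ra1* at 0.125. *Ffar4* was followed by *Lum*, the fibroblast proteoglycan lumican, at 0.210, with 31.1 FPKM in OR mouse 3 and 3.04 to 8.06 FPKM elsewhere, and by *Spon2* at 0.250. The nearest to *Ffar2* were *Cd24a* at 0.217 and *Kctd14* at 0.221. *Slc16a3* was followed by *Pcx*, pyruvate carboxylase, at 0.225, which was 19.2 and 21.6 FPKM in OP mice 1 and 2 and at most 11.8 elsewhere. The next was *Hmga1b* at 0.238, whose reads cannot be separated with certainty from those of its near-copy *Hmga1*. Among the 6 genes tested the closest pair was *Ffar3* and *Slc5a8*, at 0.351, followed by *Slc16a1* and *Slc16a3* at 0.441. These distances describe 6 mice and carry no test.

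**Figure D4:**
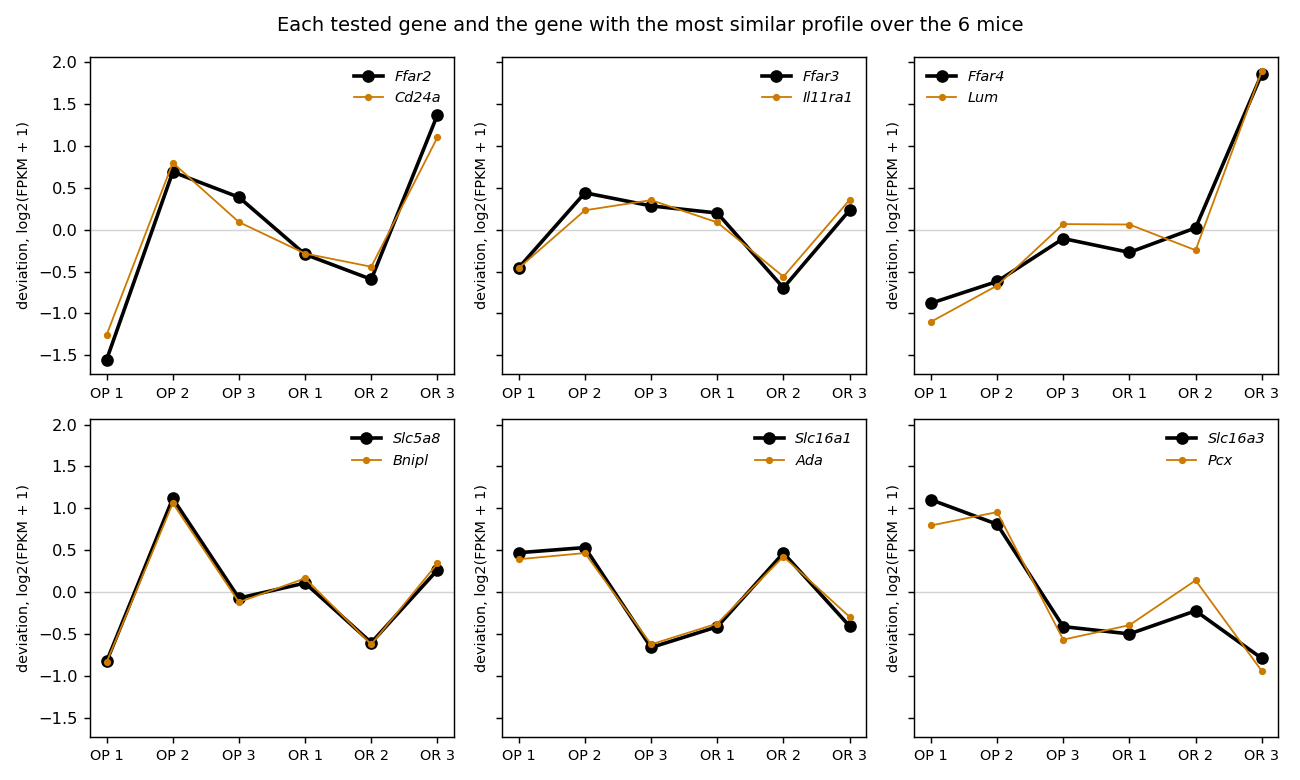
Deviation of log2(FPKM + 1) from the mean of the 6 mice (vertical axis) in each mouse (horizontal axis) for the 6 genes tested (black) and the gene nearest to each (orange). *Ffar4* and *Lum* peak in OR mouse 3, *Slc5a8* in OP mouse 2, and *Slc16a1* is high in OP mice 1 and 2 and OR mouse 2.

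The rest of the pathway was examined in 5 gene lists, and none of their 58 genes tested was called, while 2, *Vegfa* and *Acaa2*, had an unadjusted limma-trend p below 0.05, where 4.03% of all genes did. The groups did not overlap in these 2 of the 58, against 8.44% of all genes tested, so neither share lies above the background. Genes of lactate handling and the hypoxia response, a setting in which *Slc16a3* is known to be induced, had 10 of 14 higher in OP mice (with median-of-ratios scaling 11) and a median log2 difference of 0.21, against -0.10 over all genes. *Vegfa*, the vascular growth factor, was 56.6, 47.3 and 43.6 FPKM in OP mice 1, 2 and 3 and 27.5, 28.2 and 32.4 FPKM in OR mice 1, 2 and 3. Every OP mouse lay above every OR mouse, with a log2 difference of 0.72 (SE 0.15), a limma-trend p = 0.00148, a q = 0.645 and an exact permutation p = 0.1. *Ldha*, lactate dehydrogenase A, was 1560, 855 and 842 FPKM in OP mice and 646, 929 and 678 FPKM in OR mice, which overlap (log2 difference 0.49, SE 0.28, limma-trend q = 0.945). *Hif1a* was 20.6, 31.3 and 4.96 FPKM in OP mice and 5.74, 17.4 and 8.92 FPKM in OR mice, a difference of 0.59 with an SE of 0.64. Both *Ldha* and *Hif1a* were highest in OP mice 1 and 2 and OR mouse 2, as was *Slc16a3*, while *Vegfa* was not. The 4 genes with lower values in OP mice were *Bnip3* (-0.32), *Ldhb* (-0.19), *Pfkfb3* (-0.19) and *Pdk1* (-0.03), and *Car9* was near 0 at 0.02. These genes were named after their values were seen. The median of this list was 0.06 without OP mouse 1 and 0.45 without OP mouse 3.

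Of the enzymes that activate and oxidize short-chain fatty acids, 16 of 17 had lower values in OP mice. Their median log2 difference was -0.10, as over all genes, and with median-of-ratios scaling 10 were higher and 7 lower. *Acaa2*, the mitochondrial 3-ketoacyl-CoA thiolase, was 162, 137 and 201 FPKM in OP mice and 220, 210 and 220 FPKM in OR mice. All OP mice lay below the OR mice, with a log2 difference of -0.40 (SE 0.16), a limma-trend p = 0.0417, a q = 0.945 and an exact permutation p = 0.1. *Acsm3*, a medium-chain acyl-CoA synthetase, was 4.89, 59.9 and 32.4 FPKM in OP mice and 38.5, 17.2 and 42.3 FPKM in OR mice, with a difference of -0.46 (SE 0.81). As with *Slc5a8*, it was lowest in OP mouse 1 and highest in OP mouse 2.

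The other monocarboxylate carriers and their chaperones had 2 of 10 tested genes higher and 8 lower in OP mice (median -0.14), and 4 higher and 6 lower after median-of-ratios scaling. *Bsg*, which encodes basigin, the chaperone of MCT1 and MCT4, was 652 to 850 FPKM, and was chosen for its role after its values were seen. The aromatic amino acid carrier *Slc16a10* had a log2 difference of -0.48 (SE 0.34) and *Slc16a6* one of -0.25 (SE 0.28), and 0 of the 10 genes had an unadjusted limma-trend p below 0.05. Of 5 other metabolite receptors tested, 4 were lower in OP mice (median -0.15), also after median-of-ratios scaling. The lactate receptor *Hcar1*, of the same family as *Hcar2*, was 0.33, 0.17 and 1.18 FPKM in OP mice and 0.85, 1.58 and 1.00 FPKM in OR mice, with a difference of -0.50 (SE 0.27). *Gpr65*, an acid-sensing receptor, differed by -0.33 (SE 0.26) and *Gpr35* by -0.15 (SE 0.29). The G protein subunits, arrestins and phospholipase C beta genes through which these receptors signal had 12 of 12 values lower in OP mice (median -0.18), but 4 higher and 8 lower after median-of-ratios scaling. Among them *Arrb2* (-0.35, SE 0.24), *Plcb4* (-0.33, SE 0.38) and *Gnao1* (-0.28, SE 0.26) differed most, none with a limma-trend p below 0.05.

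**Figure D5:**
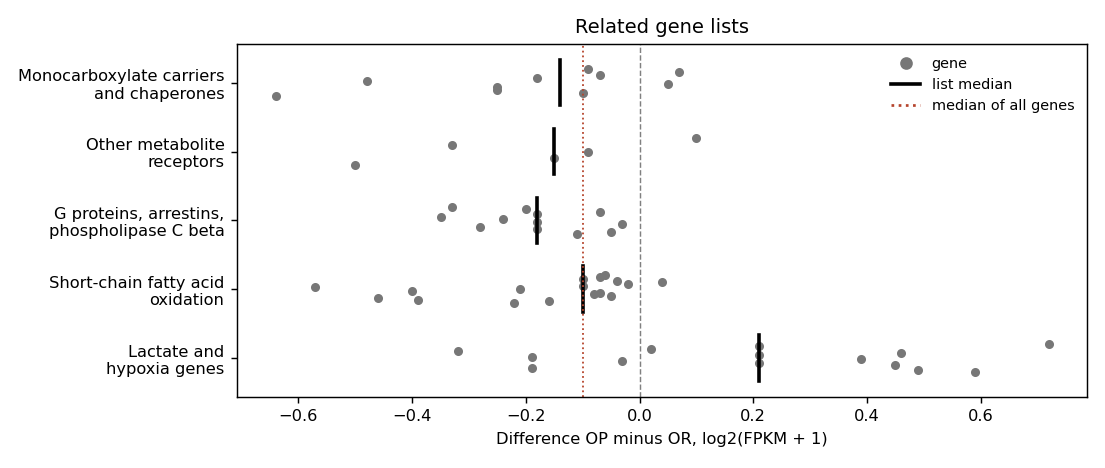
Log2 difference OP minus OR on the log2(FPKM + 1) scale (horizontal axis) of each tested gene (grey points, 1 row per list) in the 5 related lists, with the list median (black) and the median of all genes, -0.10 (red dotted). The lactate and hypoxia list has its median at 0.21 and the other lists between -0.18 and -0.10, and after median-of-ratios scaling the G protein list has 4 genes above 0 and the oxidation list 10.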

How the data were processed

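Colon RNA was extracted with TRIzol, enriched for mRNA, made into strand-specific libraries and sequenced on the DNBSEQ platform. Reads were cleaned with SOAPnuke, mapped with Bowtie2 to a GRCm39 gene set and quantified with RSEM by the authors, and the deposited values are FPKM rounded to 2 decimals. The methods and the labels differ in the versions of Bowtie2 and RSEM, and the submitters' processing notes also name HISAT2 2.0.4. FPKM fixes each library's scale, so abundant genes can move all others. The authors tested with DESeq2, which needs counts and was not run.

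Samples were grouped by their labels. From the FPKM, the 13520 of 17778 genes reaching 0.5 in 3 or more mice were compared by limma-trend (limma 3.58.1, R 4.3.3) on log2(FPKM + 1), a scale that understates changes of low genes, with Benjamini-Hochberg q-values. The test was checked on simulated data. Single values were compared by two-sided exact permutation tests (SciPy 1.17.1), whose smallest p is 0.1 for 3 mice against 3. Fragment totals were estimated, after the data were seen, from 229 to 264 low values per mouse of genes with 1 transcript: at the best depth 64.8% to 71.2% lay within 0.15 of a whole fragment, against 43.5% to 52.9% at the best depth away from it and its double, and 30% for values without steps. Lengths came from a GRCm38 annotation (GENCODE M21), so these totals are approximate, and limits from them cover counting error only.

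The 8 genes and the 16 gene lists, 5 related and 11 of cell markers, were chosen with earlier results of these data known. From each list, genes with an unadjusted p below 0.05 were eligible to be named, or otherwise those with the largest differences up to 3, with the 2 nearest profiles of each tested gene. Some genes that this rule names are not reported here. Alternatives were median-of-ratios and TPM scaling, sample weights, a fit without trend, pseudocount 0.1, dropping the filter, a stricter filter (1 or more in each of the 6 mice), a block for the replicate number and leaving out each mouse.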

Additional observations from a re-analysis of the deposited data

How the results depend on the processing

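No alternative called any of the 8 genes, and no gene was called higher in OP mice under any setting. The 3 genes called lower became 0 with median-of-ratios or TPM scaling, the replicate block, pseudocount 0.1, the filter dropped, or the stricter filter of 1 in every mouse, 5 with sample weights, and 0 to 1 with a mouse left out. Genes with an unadjusted p below 0.05, 545 in all, ranged from 255 (without OR mouse 3) to 1285 (without OP mouse 3) with a mouse left out. Genes whose groups did not overlap, 1141 in all, numbered 1619 to 3725 with a mouse left out, a rise that fewer mice give by construction. *Slc16a3*, *Slc16a1*, *Ffar4* and *Hcar2* kept their direction under each alternative. After median-of-ratios scaling the log2 difference was 0.37 for *Slc16a1*, 0.28 for *Slc5a8*, 0.25 for *Ffar3*, -0.23 for *Ffar2* and -0.95 for *Ffar4*. Leaving out a mouse moved *Ffar2* over -0.74 to 0.38, *Ffar3* over -0.13 to 0.45, *Slc5a8* over -0.37 to 0.60 and the log2 ratio of *Slc16a1* to *Slc5a8* over -0.56 to 0.65. *Ffar1*, at 0.04 without the filter, ranged from -0.0735 to 0.130 with a mouse left out and was -0.0211 with sample weights. The cause of the other changes was not tested. The replicate numbers name different mice, and the deviations of mice with the same number correlated at -0.14, -0.16 and 0.07. Between OP and OR mice with different numbers the correlations ran from -0.46 to 0.54. No likeness by number was thus seen, but so few values from groups of 3 mice cannot exclude a pairing. With the replicate block the difference of *Slc16a3* stayed at 1.00 (SE 0.31, limma-trend q = 0.990). Under this block 475 genes had an unadjusted p below 0.05. The stricter filter left *Ffar3* out. With 3 mice a group and few fragments for *Ffar1* and *Hcar2*, small differences could not be detected.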

Other observations

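The remaining marker lists gave the following values beside the 8 genes. Absorptive colonocyte markers had 8 of 9 higher in OP mice with a median log2 difference of 0.19, with *Aqp8* at 2.93 (SE 1.61), *Slc26a3* at 1.03 (SE 0.86) and *Car1* at -0.94 (SE 0.91), none with an unadjusted limma-trend p below 0.05. Epithelial markers had 9 of 12 higher (11 after median-of-ratios scaling) and a median of 0.11, with summed levels of 11720 to 15220 FPKM in OP mice and 11520 to 14430 FPKM in OR mice. Adipocyte markers had 8 of 9 lower and a median of -0.62, and their sums were 30.2 to 160 FPKM in OP mice, lowest in OP mouse 2, and 91.4 to 399 FPKM in OR mice. Smooth muscle markers had 8 of 8 lower with a median of -0.27, and 5 of 8 lower after median-of-ratios scaling. T cell markers had 5 of 5 lower with a median of -0.49. The 6 posterior Hox genes summed to 6.80 to 76.6 FPKM in OP mice, highest in OP mouse 2, and to 6.31 to 9.06 FPKM in OR mice. Under the sample weights estimated by limma, OP mouse 1 had the lowest weight at 0.332 and OR mouse 3, the mouse with the highest *Ffar4* and *Ffar2*, the highest at 2.21.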
